A study of Mus musculus with 20 samples.

Results

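The hypoxia pathway genes described here are 9 genes chosen by name: Hif1a, Epas1 and Arnt, which encode subunits of the hypoxia-inducible factors (HIFs), Egln1 and Egln3, which encode HIF prolyl hydroxylases, and Vegfa, Ddit4, Adm and Ankrd37, which are known HIF targets. All 9 were found by symbol among the 21844 genes of the deposited table. All 9 also passed the filter on low counts, which left 14359 genes for testing. RNA was sequenced from 20 libraries of mouse hindlimb muscle, which the labels call gastrocnemius in some fields and tibialis anterior in another. Every mouse carried Cre+:iMSBmal1 fl/fl, a floxed gene for the clock transcription factor BMAL1 with an inducible Cre recombinase restricted to muscle, so blood vessels, immune cells and other cells in the tissue lie outside the reach of the deletion. The 4 groups of 5 libraries were vehicle and no exercise (vehicle sedentary), iMSBmal1KO and no exercise (knockout sedentary), vehicle and exercise training (vehicle trained) and iMSBmal1KO and exercise training (knockout trained). Training was daily treadmill running for 6 weeks. The sample labels time the collection at 48 hours post, with no event named, while the design text has 47 hours from the last bout. Strain, age, sex and the agent that switches on the Cre are not given in the sources used here. The labels do not state that each library is from a separate mouse, so p-values measure the spread between these libraries, which may be in part technical.

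HIFs are the transcription factors through which cells respond to low oxygen. When oxygen is present, prolyl hydroxylases of the EGLN family mark the alpha subunits HIF1A and EPAS1 for destruction through the VHL ubiquitin ligase, and when it is scarce the alpha subunits pair with ARNT and switch on genes for glycolysis, blood vessel growth and iron handling. EGLN3 and, more weakly, EGLN1 are themselves HIF targets, and oxygen controls the alpha subunits mainly at the protein, which RNA does not show. HIF subunits and BMAL1 are members of the same bHLH-PAS protein family. HIF heterodimers bind a core of ACGTG or of GCGTG, and BMAL1 with its partner CLOCK binds E-boxes such as CACGTG.

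The promoters of Hif1a, Egln1 and Egln3 are shown because these are the genes whose values did not overlap between groups in at least 1 comparison below. Each sequence is the 250 bases before the start site, 5′ to 3′ on the gene's strand, from RefSeq for GRCm38.p6. Capitals mark the motif ACGTG and the motif GCGTG, both as read on either strand. The E-box CACGTG holds ACGTG on both strands.
Hif1a, chr12:73907617-73907866, plus strand: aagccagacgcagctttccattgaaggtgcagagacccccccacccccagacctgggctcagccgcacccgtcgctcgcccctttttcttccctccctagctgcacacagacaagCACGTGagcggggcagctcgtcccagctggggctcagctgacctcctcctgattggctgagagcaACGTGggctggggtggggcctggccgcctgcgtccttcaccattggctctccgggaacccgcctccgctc
Egln1, chr8:124949255-124949504, minus strand: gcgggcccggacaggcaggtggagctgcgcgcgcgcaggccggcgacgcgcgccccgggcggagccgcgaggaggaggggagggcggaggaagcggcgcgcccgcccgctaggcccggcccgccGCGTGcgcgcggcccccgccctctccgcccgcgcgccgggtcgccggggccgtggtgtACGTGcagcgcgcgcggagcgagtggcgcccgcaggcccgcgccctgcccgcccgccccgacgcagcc
Egln3, chr12:54203875-54204124, minus strand: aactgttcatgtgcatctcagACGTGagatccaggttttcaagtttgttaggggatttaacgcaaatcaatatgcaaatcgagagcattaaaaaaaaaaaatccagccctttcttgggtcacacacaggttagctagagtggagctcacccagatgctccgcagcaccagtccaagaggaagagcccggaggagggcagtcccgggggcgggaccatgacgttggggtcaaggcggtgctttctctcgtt
In the Hif1a promoter CACGTG lay at bases 135 to 130 before the start. RefSeq windows from 250 bases before to 50 after the start were read for 8 of the 9 genes, with no entry for Epas1. CACGTG was in 1 of the 8, Hif1a, and in 8.09% of 27025 genes. ACGTG was in 6 of the 8, all but Adm and Arnt, and in 21.8% of genes. GCGTG was in 6 of the 8, all but Hif1a and Egln3, and in 35.2% of genes. A match describes the letters in this window and shows no binding.

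Total counts per library lay between 10610333 and 19153527. Of the libraries labelled knockout trained, numbers 1 and 4, and numbers 3 and 5, differed from each other little more than repeated counting of 1 library would. For highly counted genes the median squared difference was 2.38 and 1.755 times that of counting noise, near the multiple at low counts (1.898 and 2.011), and the next closest pair of libraries in the series was at 6.378. Each of these pairs was counted as 1 sample, which leaves n = 3 in that group and 18 samples in all. Vehicle trained library 2 stood far from its group, with 61.1% of all tested genes outside the range of the other 17 samples, and the results for the 9 genes that it touches are given with and without it. The muscle fibre markers, 9 of 9 in the table, summed to between 55400 and 91350 CPM, and none was at 0 in any library. CPM is the count per 1000000 counts of the library, after TMM scaling of the library totals. The targeted gene Arntl, which encodes BMAL1, had values in vehicle sedentary libraries of 7.44, 6.21, 6.32, 7.38 and 5.97 CPM, below the 17.5, 10.7, 10.4, 11.04 and 12.97 CPM of those labelled knockout sedentary. In trained muscle it was 6.38, 142, 6.91, 5.96 and 6.74 CPM in vehicle libraries and 14.1, 9.48, 8.77, 17.3 and 9.09 CPM in those labelled knockout. So the level of Arntl does not by itself bear out the labels. Other clock genes did separate the labelled groups. Of 14 tested bHLH-PAS genes outside the set, 2 were higher and 1 lower in knockout sedentary samples (edgeR), against 2.33% of all tested genes. Clock lay at 30.8 to 35.0 CPM in vehicle sedentary and 65.95 to 82.1 CPM in knockout sedentary samples. Per2 lay at 39.6 to 50.5 and 17.3 to 23.1 CPM. Whether these differences follow from loss of BMAL1 was not tested. A count per gene does not show whether the floxed exon was lost, and every direction below rests on the labels.

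Per kilobase of merged exons in the GENCODE M21 annotation, Vegfa had the highest level of the 9 genes, with a median of 87.2 CPM per kb over the 17 samples other than vehicle trained library 2 (range 64.1 to 119.2). Egln1 followed at 58.2 CPM per kb (41.1 to 69.4). These ranges overlapped. Epas1 had 26.1 CPM per kb (23.2 to 30.5), below every value of Egln1. The other HIF subunits were lower, Arnt at 7.17 CPM per kb (5.85 to 8.65) and Hif1a at 5.57 CPM per kb (4.69 to 6.64), which overlapped each other but not Epas1. Ddit4 at 14.6 CPM per kb (4.35 to 31.1) and Egln3 at 12.6 CPM per kb (5.31 to 19.9) overlapped each other. Both also overlapped Arnt and Hif1a, and Ddit4 overlapped Epas1 and Adm as well. Adm had 3.12 CPM per kb (2.26 to 4.91), which overlapped Hif1a too. Ankrd37 had 1.34 CPM per kb (0.863 to 1.92). With the longest transcript in place of merged exons Arnt was at 13.3 CPM per kb, above Egln3, and no other place in the order changed. Levels of RNA in whole muscle cannot tell fewer cells of a type from less RNA per cell.

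Across the 4 groups no hypoxia pathway gene passed the test. With edgeR's quasi-likelihood test and Benjamini-Hochberg adjustment over all tested genes, 0 of 9 had an adjusted p under 0.05 in each of 5 comparisons. The knockout comparison in sedentary muscle called 2.33% of all tested genes and the one in trained muscle 3.29%. Training called 0% of genes in vehicle muscle, 0% in muscle labelled knockout, and 0% in the interaction of knockout and training, which is the knockout effect in trained minus that in sedentary muscle. At an unadjusted p under 0.05 there were 0, 1, 3, 0 and 1 of the 9 genes in these 5 comparisons, against 1409, 2467, 2186, 1394 and 1076 of 14359. DESeq2 and limma on log2(CPM + 1) also called 0 of 9 in each. Limma voom with sample quality weights, called 0, 3, 0, 2 and 2. Over all tested genes voom called 9.23%, 28.5%, 0.00696%, 27.2% and 8.43%. The median log2 change of the 9 genes was -0.10 for the knockout in sedentary muscle, where that of all tested genes was 0.01, and -0.31 in trained muscle, where it was -0.03. For training it was 0.11 in vehicle muscle and 0.03 in muscle labelled knockout, against 0.03 and -0.02 over all tested genes. Without vehicle trained library 2 the median of the 9 was 0.09 for the knockout in trained muscle and -0.09 for training in vehicle muscle, so both changed sign.

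Without vehicle trained library 2, edgeR again called 0 of 9 genes in each comparison. All tested genes then gave 6.98% for the knockout in sedentary muscle, 8.66% for the knockout in trained muscle, 0% for training in vehicle muscle, 0.843% for training in muscle labelled knockout and 0% for the interaction. At an unadjusted p under 0.05 there were 2, 1, 2, 1 and 2 of the 9 genes, against 2533, 3222, 1869, 2516 and 1643 of 14359. DESeq2 without this library called 0, 0, 1, 1 and 1, which were Egln3 for training in vehicle muscle, Hif1a for training in muscle labelled knockout and Egln1 in the interaction. The shares of all tested genes called by DESeq2 in this way were 8.67%, 11.3%, 0.153%, 4.98% and 0.808%, with genes to which it gave no adjusted p counted as not called.

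**Figure D1:**
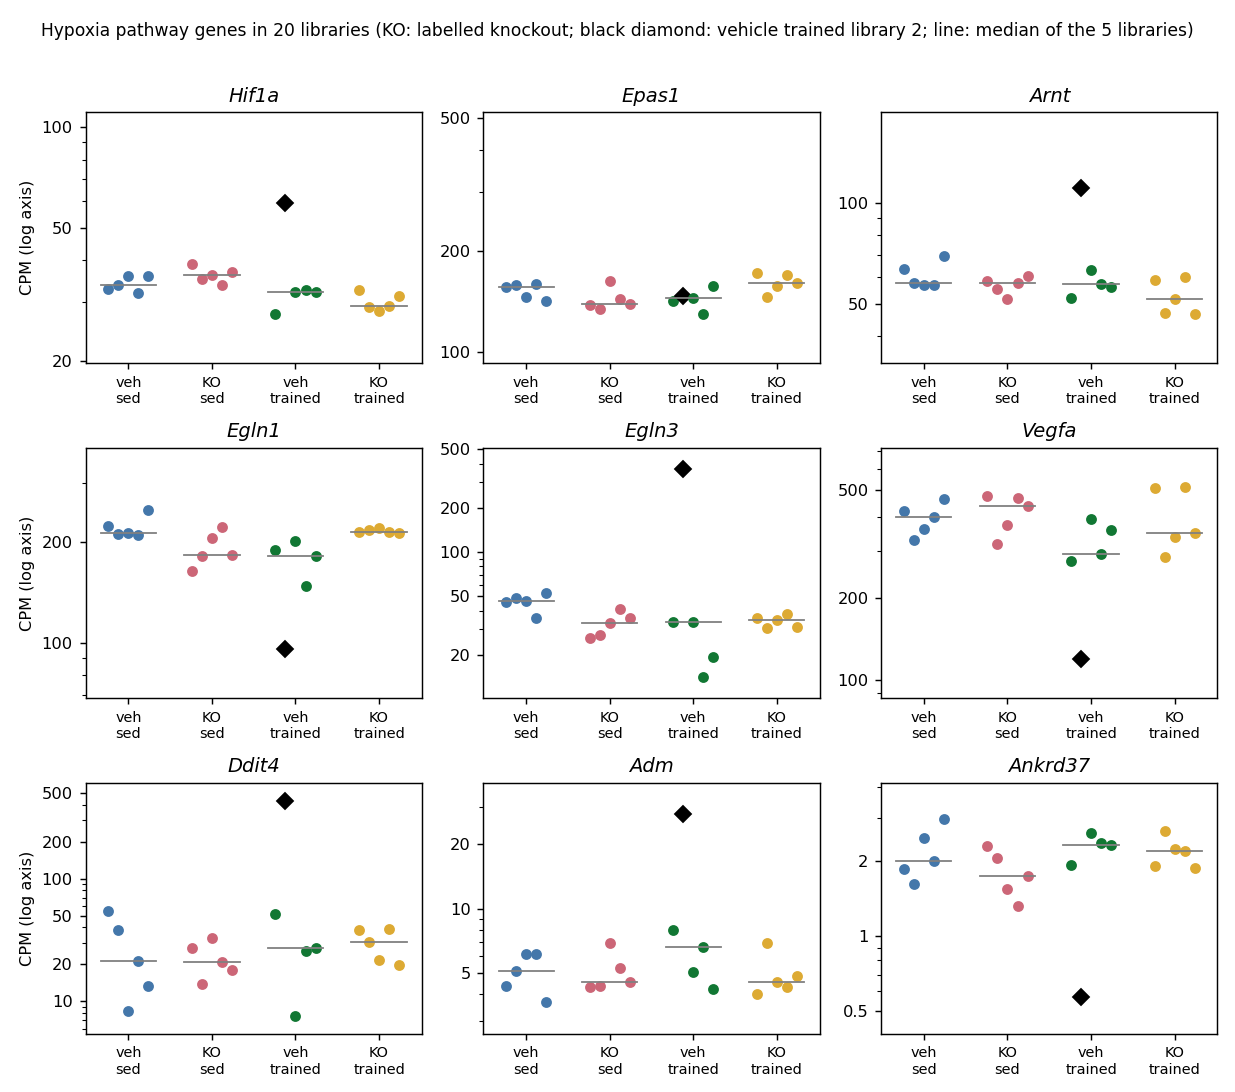
CPM of the 9 genes on log axes, 1 panel a gene and 1 point a library, in the 4 groups of 5 libraries. The line is the median of the 5 libraries, which in the knockout trained group are 3 samples. In Hif1a, Arnt, Egln3, Ddit4 and Adm the black diamond, vehicle trained library 2, lies above all other libraries, and in Egln1, Vegfa and Ankrd37 below them.

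Hif1a (ENSMUSG00000021109) encodes the HIF subunit best known for driving glycolytic genes. It lay at 32.9, 33.8, 36.0, 31.9 and 35.9 CPM in the 5 vehicle sedentary libraries and at 39.1, 35.2, 36.1, 33.9 and 36.9 CPM in the 5 labelled knockout sedentary. In vehicle trained libraries it was 27.7, 59.2, 32.2, 32.7 and 32.1 CPM, and in those labelled knockout trained 32.7, 29.1, 28.2, 29.2 and 31.3 CPM. All libraries labelled knockout trained lay below all labelled knockout sedentary, whereas the other comparisons overlapped. For all 9 genes, 1 had no overlap in this training comparison, against 8.62% of all tested genes. The log2 change with training in muscle labelled knockout was -0.28 (SE 0.18, edgeR adjusted p = 0.691), or a fold of 0.821 with a 95% interval of 0.631 to 1.07. Vehicle trained library 2 is in neither group but enters the shared estimate of the spread. Without it the change was -0.28 with an SE of 0.0803 (edgeR adjusted p = 0.0851). In vehicle muscle the training change was 0.11 with all samples and -0.13 without library 2 (edgeR adjusted p = 0.733 and 0.444). Hif1a exons overlap those of Gm15283, an antisense gene, and of Gm49321 on the same strand in GENCODE M21, and since the strand setting of the counting is not given in the sources used here its counts are uncertain to that extent.

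Epas1 (ENSMUSG00000024140) encodes the HIF alpha subunit that is prominent in blood vessels. Its values were 142 to 159 CPM in vehicle sedentary libraries and 135 to 163 CPM in those labelled knockout sedentary. They were 130 to 157 CPM in vehicle trained libraries and 146 to 172 CPM in those labelled knockout trained. Vehicle trained library 2, at 147 CPM, lay within its group. The groups overlapped in every comparison, and the 4 log2 changes between groups lay between -0.09 and 0.13 (edgeR adjusted p from 0.547 to 0.932). Without library 2 they lay between -0.09 and 0.14 (edgeR adjusted p from 0.402 to 0.673). The 95% intervals of the fold were 0.828 to 1.07 for the knockout in sedentary muscle and 0.943 to 1.26 in trained muscle. With library totals in place of TMM scaling the training change in muscle labelled knockout turned from 0.13 to -0.00381. That scaling lowered the median change over all tested genes in this comparison by 0.137, to -0.154. The endothelial markers, 8 of 8 in the table and none at 0 in any sample, summed to 170.1 to 230.3 CPM in vehicle sedentary, 182.7 to 235.3 in knockout sedentary, 158.4 to 210.2 in vehicle trained and 191.0 to 273.8 in knockout trained samples. Their part in the Epas1 values was not tested.

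Arnt (ENSMUSG00000015522) encodes the subunit that both alpha subunits need as a partner. Its range was 56.7 to 69.3 CPM in vehicle sedentary libraries and 51.8 to 60.3 CPM in those labelled knockout sedentary. In vehicle trained libraries it was 52.1, 111, 62.8, 57.4 and 56.1 CPM and in those labelled knockout trained 58.6, 46.8, 51.7, 60.2 and 46.5 CPM. Only library 2 of the vehicle trained group exceeded 70 CPM, and the groups overlapped in every comparison. The knockout change in trained muscle was -0.40 on the log2 scale with all samples (SE 0.196, edgeR adjusted p = 0.306) and -0.14 without library 2 (SE 0.102, edgeR adjusted p = 0.447).

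Egln1 (ENSMUSG00000031987) encodes the main oxygen sensor of the HIF system. It was measured at 223, 212, 213, 209 and 249.3 CPM in vehicle sedentary libraries and at 189, 95.5, 201, 148 and 182 CPM in vehicle trained libraries. All 5 vehicle trained values lay below all 5 vehicle sedentary values, with library 2 the lowest. In muscle labelled knockout Egln1 was 163, 181, 205, 222 and 183 CPM sedentary and 215, 217, 220, 214 and 212 CPM trained. These knockout trained libraries are 3 samples, and agreement within a summed pair is close to repeated counting. The 3 samples were at 214.3 to 216.6 CPM. They lay above all vehicle trained values, and in the range of the vehicle sedentary libraries. The training change in vehicle muscle was -0.45 on the log2 scale (SE 0.153, edgeR unadjusted p = 0.00897, adjusted p = 0.272), a fold of 0.733 with a 95% interval of 0.587 to 0.916. Without library 2 the fold was 0.812 with an interval of 0.701 to 0.942 (edgeR adjusted p = 0.357), and the groups still did not overlap. In muscle labelled knockout the training change was 0.16 (SE 0.175, edgeR adjusted p = 0.902).

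The difference between these training responses, the interaction, was 0.61 for Egln1 on the log2 scale (SE 0.232, edgeR unadjusted p = 0.0166, adjusted p = 0.646). In the fit that leaves out library 2 it was 0.47 (SE 0.149, unadjusted p = 0.00512, edgeR adjusted p = 0.276), and with DESeq2 without library 2 it passed the threshold (0.48, adjusted p = 0.0485). The knockout change in Egln1 was -0.22 in sedentary muscle (SE 0.152, edgeR adjusted p = 0.814) and 0.39 in trained muscle (SE 0.174, edgeR adjusted p = 0.25). Egln1 was the gene with no overlap in 2 comparisons, the knockout in trained muscle and training in vehicle muscle. Of all tested genes 8.94% had no overlap in the first and 1.85% in the second, and without library 2 these shares were 15.9% and 3.35%. For the knockout in sedentary muscle 0 of the 9 genes had no overlap, against 8.66% of all tested genes.

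Egln3 (ENSMUSG00000035105) encodes a prolyl hydroxylase that HIF strongly induces. It lay at 45.9, 49.1, 46.4, 35.8 and 53.1 CPM in vehicle sedentary libraries and at 26.1, 27.1, 32.8, 41.0 and 35.5 CPM in those labelled knockout sedentary. In vehicle trained libraries it was 33.3, 366, 33.6, 14.1 and 19.4 CPM and in those labelled knockout trained 35.6, 30.6, 34.5, 37.8 and 30.9 CPM. Library 2 of the vehicle trained group was the highest of all 20, while the other 4 of that group lay below all 5 vehicle sedentary libraries. Its direction in trained muscle therefore turned with this library. The training change in vehicle muscle was 1.02 on the log2 scale with all samples (SE 0.642, edgeR adjusted p = 0.428). Without library 2 it was -0.88 (SE 0.207, unadjusted p = 0.000472, edgeR adjusted p = 0.298), a fold of 0.544 with a 95% interval of 0.402 to 0.735. DESeq2 without library 2 gave -0.88 as well (adjusted p = 0.0316). Among the 9 genes, Egln1 and Egln3 were then the 2 with no overlap in this comparison.

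The knockout change of Egln3 was -0.51 in sedentary muscle with and without library 2, with edgeR adjusted p of 0.97 and 0.144. In a fit of the sedentary groups alone it passed the threshold at -0.51 (edgeR adjusted p = 0.0239), as did 8.2% of all tested genes. In trained muscle the knockout change was -1.50 with all samples and 0.41 without library 2 (edgeR adjusted p = 0.336 and 0.314). The interaction of Egln3 was -0.99 with all samples (SE 0.986, edgeR adjusted p = 0.799) and 0.92 without library 2 (SE 0.3, unadjusted p = 0.00663, edgeR adjusted p = 0.277), where DESeq2 gave no adjusted p.

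**Figure D2:**
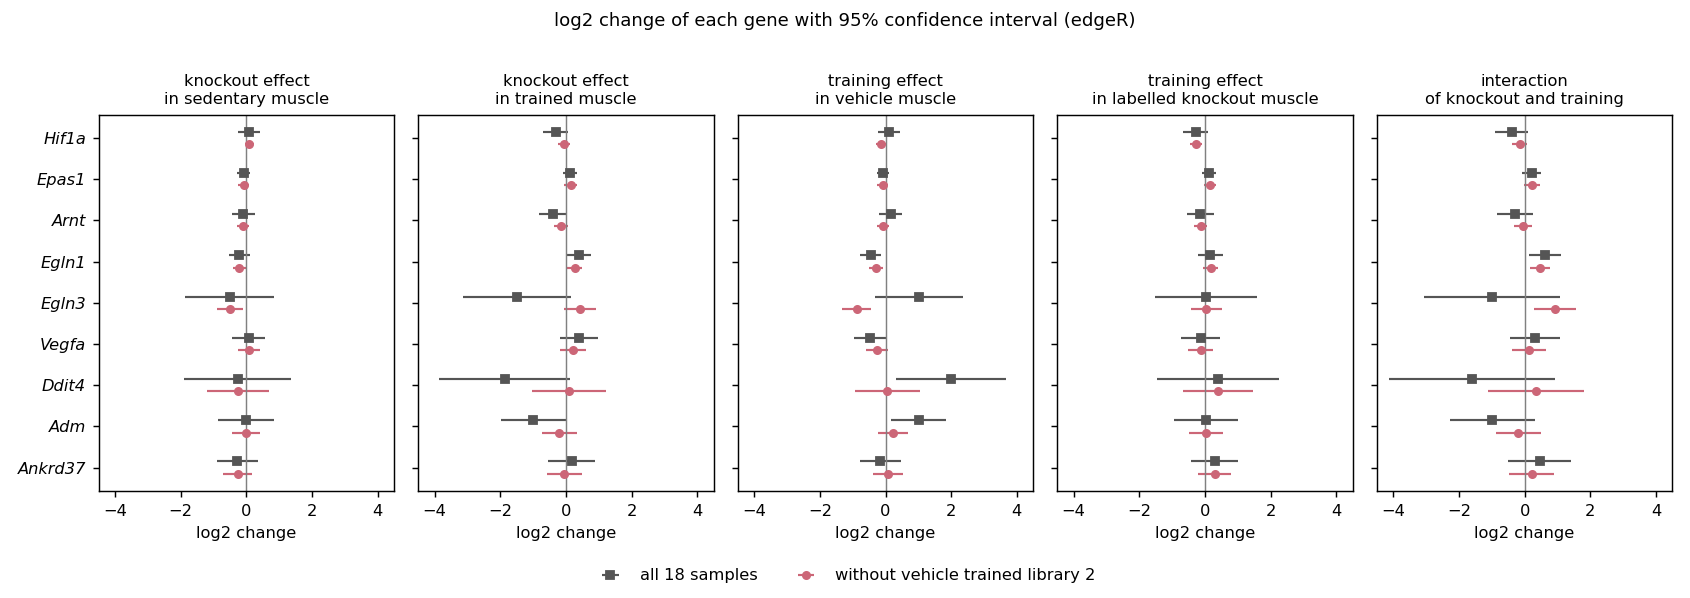
log2 change of each gene with its 95% confidence interval in 5 comparisons (edgeR), with all 18 samples as squares and without vehicle trained library 2 as circles. Egln3 in vehicle muscle moves from 1.02 to -0.88 when that library is left out, while the sedentary knockout changes keep their place and their intervals shorten.

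Among the targets, Vegfa (ENSMUSG00000023951) encodes the main growth factor for blood vessels and is known to rise in muscle after exercise. Its coefficient of variation was 13.4% in vehicle sedentary and 16.3% in knockout sedentary samples. In trained muscle it was 36.6% in vehicle samples (16.8% without library 2) and 31.1% in those labelled knockout. Vegfa lay at 419, 329, 359, 399 and 465 CPM in vehicle sedentary libraries and at 275, 120, 392, 291 and 357 CPM in vehicle trained libraries. In muscle labelled knockout it was 476, 317, 374, 467 and 440 CPM sedentary and 509, 283, 337, 513 and 349 CPM trained, the last being 3 samples. The groups overlapped in every comparison, and library 2 of the vehicle trained group was the lowest of all. The training change in vehicle muscle was -0.46 on the log2 scale with all samples and -0.26 without library 2 (edgeR adjusted p = 0.354 and 0.482). Without that library the 95% interval of the fold was 0.656 to 1.06, and in muscle labelled knockout it was 0.703 to 1.19.

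Ddit4 (ENSMUSG00000020108) encodes an inhibitor of the growth kinase mTORC1 and responds to several stresses besides hypoxia. Vehicle sedentary libraries had 54.5, 38.2, 8.29, 21.2 and 13.3 CPM, and those labelled knockout sedentary 27.2, 13.7, 32.7, 21.0 and 18.1 CPM. In vehicle trained libraries they were 51.3, 427, 7.64, 25.6 and 27.0 CPM and in knockout trained libraries 37.8, 30.4, 21.7, 38.5 and 19.8 CPM. Library 2 of the vehicle trained group was far above all others, and the remaining values of all groups overlapped. Even without this library Ddit4 had the widest relative spread of the 9 genes in the vehicle groups, with a coefficient of variation of 70.4% in vehicle sedentary and 64.3% in vehicle trained libraries. The training change in vehicle muscle was 2.00 on the log2 scale with all samples (SE 0.795, edgeR adjusted p = 0.283) and 0.05 without library 2 (SE 0.474, edgeR adjusted p = 0.969). The knockout change in trained muscle moved from -1.87 to 0.09 (edgeR adjusted p = 0.327 and 0.943).

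Adm (ENSMUSG00000030790) encodes adrenomedullin, a peptide that widens blood vessels. It was low, with counts of 46 to 389 per library. Its values were 3.66 to 6.17 CPM in vehicle sedentary, 4.30 to 6.95 CPM in knockout sedentary and 3.99 to 6.90 CPM in knockout trained libraries. In vehicle trained libraries they were 7.95, 27.6, 5.05, 6.66 and 4.20 CPM, of which library 2 lay apart and the other 4 were in the range of the other groups or just above it. The training change in vehicle muscle was 1.00 on the log2 scale with all samples and 0.22 without library 2 (edgeR adjusted p = 0.283 and 0.657). The knockout change in trained muscle was -0.99 and -0.20 (edgeR adjusted p = 0.294 and 0.688).

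Ankrd37 (ENSMUSG00000050914) encodes an ankyrin repeat protein and is known as a strongly induced HIF target. Only 8 to 49 counts were seen per library, which limits its precision. It lay at 1.62 to 2.95 CPM in vehicle sedentary, 1.33 to 2.30 CPM in knockout sedentary and 1.89 to 2.66 CPM in knockout trained libraries. In vehicle trained libraries it was 1.93, 0.567, 2.59, 2.36 and 2.34 CPM, with library 2 the lowest of all 20. The groups overlapped in every comparison, and the 95% interval of the knockout fold in sedentary muscle was 0.534 to 1.28, or 0.611 to 1.13 without library 2. Its training change in vehicle muscle was -0.16 with all samples and 0.08 without library 2 (edgeR adjusted p = 0.792 and 0.894). Exons of Lrp2bp and Ufsp2 overlap those of Ankrd37 on the opposite strand in GENCODE M21, so its counts are uncertain where the counting did not use strand.

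In vehicle trained library 2 these genes differed from the rest of the group in both directions. Against the mean of the other 4 vehicle trained libraries, Ddit4 was 15.3-fold and Egln3 14.6-fold higher, and Adm 4.62-fold. Arnt was at 1.94 times and Hif1a at 1.899 times that mean. Epas1 was at 1.03 times the mean. Egln1 was at 0.532 times, Vegfa at 0.365 times and Ankrd37 at 0.246 times the mean. Of the 9 genes 8 lay outside the range of the other 17 samples, 5 above and 3 below, against 61.1% of all tested genes. Against that same mean 5 of the 9 differed by over 2-fold, or 55.6%, as did 35.2% of all tested genes. Of the other hypoxia pathway genes, 18 of 78 were over 2-fold higher and 13 over 2-fold lower in this library, 39.7% in all. No test was made on a single library.

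Some clock genes differed in this library, as did many genes of all kinds. Against the mean of the other 4 libraries, 4 of 14 tested bHLH-PAS genes were over 2-fold higher and 3 over 2-fold lower. Of all 14359 tested genes 1916 were over 2-fold higher and 3144 over 2-fold lower, or 35.2%. That share is also the background of the counts of other lists below. Arntl was at 141.8 CPM against 5.96 to 6.91 in the other 4, and Per3 at 5.10 CPM against 41.6 to 52.6. Per2, at 39.2 CPM, lay within their 31.4 to 43.5. The sestrin gene Sesn1 was at 853.8 CPM against 18.5 to 25.4. Ddit4 was higher in this library together with known glucocorticoid targets. All 11 of the listed glucocorticoid targets were over 2-fold higher, with a median log2 difference of 2.60. In the knockout comparison in trained muscle 2 of the 11 fell, Fkbp5 (-1.52 with all samples and -0.90 without library 2) and Tsc22d3 (-1.13 and -0.73). Their edgeR adjusted p were 0.0438 and 0.00758 for Fkbp5 and 0.0404 and 0.00841 for Tsc22d3. With 1 sample left out these calls were lost in 13 and 12 of the 18 fits. The knockout comparison in trained muscle called 3.29% of all tested genes, or 8.66% without library 2. Without library 2, 2 of the 11 glucocorticoid targets also fell in sedentary muscle, Tsc22d3 and Per1, where 6.98% of all tested genes were called. Sums of markers of other cells lay outside the range of the other 4 libraries for some lists and within it for others. The macrophage markers, 8 of 8 in the table, summed to 471.1 CPM against 170.4 to 394.5 in the other 4 libraries of the group, and 4 of 8 were over 2-fold higher. The adipocyte markers, 6 of 6, summed to 148.1 CPM against 216.5 to 722.8, with Lep at 0 in at least 1 sample. The muscle fibre markers summed to 55400 CPM against 70110 to 77560. The satellite cell markers, 4 of 4, summed to 9.276 CPM against 21.49 to 28.25. Of the fibroblast markers 3 of 5 were over 2-fold lower, while their sum of 1805 CPM lay within the 1619 to 2652 of the other 4 libraries. The Schwann cell markers, 5 of 5, summed to 93.4 CPM, within 53.03 to 103.6. The smooth muscle and pericyte markers, 6 of 6, summed to 423.6 CPM, within 419.1 to 567.5. The endothelial markers, 8 of 8, summed to 210.2 CPM against 158.4 to 202.3, with 1 over 2-fold higher. The blood markers, 5 of 5, summed to 551.1 CPM against 618.1 to 2042. The part of these differences in the values of the hypoxia genes was not tested.

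**Figure D3:**
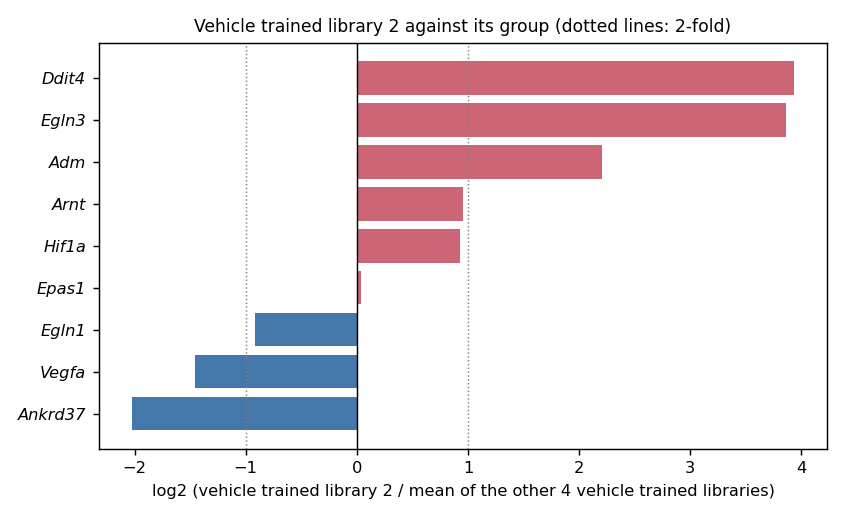
log2 ratio of vehicle trained library 2 to the mean of the other 4 vehicle trained libraries for each of the 9 genes, with dotted lines at 2-fold. Ddit4 and Egln3 stand at 3.94 and 3.87, Epas1 at 0.04 and Ankrd37 at -2.03.

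Other genes of the pathway were read from 4 lists with 81 genes in all, of which 78 were tested. In sedentary muscle 1 of the 78 was higher and 3 were lower in libraries labelled knockout than in vehicle libraries (edgeR). In trained muscle 2 were higher and 4 lower. Of all tested genes 2.33% were called in sedentary and 3.29% in trained muscle. The median log2 change over the 78 was -0.01 in sedentary and -0.04 in trained muscle, and that over all tested genes 0.01 and -0.03. Without vehicle trained library 2 there were 2 of the 78 higher and 6 lower in each training state. Of all tested genes 6.98% in sedentary and 8.66% in trained muscle were called in that fit. The count of the 78 in sedentary muscle was 2 in all without vehicle sedentary library 3, without vehicle sedentary library 4 or without knockout sedentary library 1. In trained muscle it was 3 without knockout trained libraries 1 and 4, 3 without knockout trained library 2, and 1 without knockout trained libraries 3 and 5. Training changed 0 of 78 in either genotype (edgeR), with 12 in vehicle muscle and 9 in muscle labelled knockout at an unadjusted p under 0.05. Over all tested genes training called 0% in both, with 2186 and 1394 of 14359 at that unadjusted p. DESeq2 called 0 and 3 of the 78, limma 0 and 0, and limma voom with quality weights 0 and 29. Of all tested genes voom called 0.00696% and 27.2%, and the DESeq2 counts over all genes are given in the last section.

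Among the 27 tested targets in glucose and mitochondrial metabolism, 2 were lower in sedentary muscle, and 2 were higher and 2 lower in trained muscle. The shares of all tested genes called (edgeR) were 2.33% and 3.29%. Slc2a3, which encodes the glucose transporter GLUT3, fell in muscle labelled knockout in both training states. It lay at 28.0, 18.7, 19.2, 16.9 and 20.5 CPM in vehicle sedentary libraries and at 1.91, 3.44, 3.33, 2.82 and 2.27 CPM in those labelled knockout sedentary. In trained muscle it was 16.2, 12.3, 21.9, 21.0 and 20.7 CPM in vehicle libraries and 2.78, 3.16, 1.21, 1.75 and 1.44 CPM in those labelled knockout. No library labelled knockout came near any vehicle library. The log2 change was -2.92 in sedentary muscle (SE 0.234, edgeR adjusted p = 1e-06) and -3.07 in trained muscle (SE 0.29, edgeR adjusted p = 8.22e-06), and each fit with a sample left out kept both calls.

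Hk2 encodes hexokinase in muscle, which traps glucose in the cell. Vehicle sedentary libraries lay at 383 to 583 CPM and those labelled knockout sedentary at 218 to 297 CPM, with no overlap. In trained muscle the vehicle libraries had 320, 1853.0, 517, 470 and 439 CPM and those labelled knockout 248, 202, 231, 254 and 236 CPM. Library 2 of the vehicle trained group was the highest, and the groups did not overlap with or without it. With all samples Hk2 fell in trained muscle (log2 change -1.67, SE 0.428, edgeR adjusted p = 0.0391), and in sedentary muscle the change was -1.002 (edgeR adjusted p = 0.212). Without library 2 both changes passed the test, at -0.9975 in sedentary (SE 0.136, edgeR adjusted p = 6.73e-05) and -0.93 in trained muscle (SE 0.166, edgeR adjusted p = 0.00137). With all samples the trained call was lost in 11 of the 18 fits with 1 sample left out, with adjusted p up to 0.16.

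Mxi1, which encodes an antagonist of MYC, fell in sedentary muscle labelled knockout. The mean was 49.2 ± 5.52 CPM in the vehicle group and 35.5 ± 3.54 CPM in the other (SD, n = 5 in both). Its log2 change of -0.48 (SE 0.107, edgeR adjusted p = 0.0181) did not pass the threshold with library totals in place of TMM scaling (adjusted p = 0.0927) or in 5 of the 18 fits with 1 sample left out. In trained muscle the change in Mxi1 was -0.36 (edgeR adjusted p = 0.134). Leaving out vehicle trained library 2 gave -0.47 in sedentary and -0.39 in trained muscle (edgeR adjusted p = 0.00435 and 0.0524). Eno1 (enolase) and Cox4i2, a subunit of cytochrome oxidase known to respond to low oxygen, were higher in trained muscle labelled knockout. Eno1 had a mean of 37.9 ± 7.37 CPM over 5 vehicle trained samples and of 58.8 ± 6.05 CPM over 3 labelled knockout trained (± SD), and the log2 change was 0.62 (SE 0.141, edgeR adjusted p = 0.0201). Eno1 has near-identical copies in the mouse genome, so its counts are uncertain. Cox4i2 was low, with means of 1.42 ± 0.413 CPM and 2.99 ± 0.433 CPM over the same samples, and its log2 change was 1.07 (SE 0.247, edgeR adjusted p = 0.0228). The call on Eno1 was lost without knockout trained library 2 and without libraries 3 and 5 of that group (adjusted p up to 0.141). That on Cox4i2 was lost without knockout trained libraries 1 and 4 and without libraries 3 and 5 (adjusted p up to 0.144). With vehicle trained library 2 left out they were 0.51 for Eno1 and 1.15 for Cox4i2 (edgeR adjusted p = 0.00148 and 0.00901).

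Smooth muscle and pericyte markers are given beside Cox4i2, whose sedentary change was 0.22 (edgeR adjusted p = 0.938). The 6 marker genes, all in the table and none at 0, summed to 469.3 to 541.3 CPM in vehicle sedentary and 543.8 to 679.1 in knockout sedentary samples. They summed to 419.1 to 567.5 CPM in vehicle trained and 609.9 to 658.2 in knockout trained samples. In both training states the groups did not overlap, though 0 of the 6 genes passed the test (edgeR), with 1 in sedentary and 2 in trained muscle at an unadjusted p under 0.05. DESeq2 and limma also called 0, and limma voom called 0 in sedentary and 2 in trained muscle. Of all tested genes voom called 9.23% and 28.5%. The endothelial marker Egfl7 passed the edgeR test in trained muscle, 1 of 8, and without vehicle trained library 2 Esam passed as well. The shares of all tested genes called there were 3.29% and 8.66%. The part of these markers in the Cox4i2 values was not tested.

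Of the 21 tested targets outside metabolism, blood vessels, red cells and iron handling, 1 was higher and 1 lower in sedentary muscle. In trained muscle 2 of the 21 were lower. The edgeR test called 2.33% of all tested genes in sedentary and 3.29% in trained muscle. Bhlhe40, a transcription factor gene that is a target of HIF and of the clock alike, fell in sedentary muscle from a mean of 162 ± 19.8 CPM to one of 75.5 ± 8.97 CPM (SD, n = 5 in both), which is -1.11 on the log2 scale (SE 0.238, edgeR adjusted p = 0.0135). In trained muscle its change was -1.42 with all samples and -1.02 without vehicle trained library 2 (edgeR adjusted p = 0.00921 and 0.000308), and it was lost without knockout trained libraries 3 and 5 (adjusted p = 0.0584). Rora, a nuclear receptor gene that is likewise a target of both, fell in trained muscle by 1.45 on the log2 scale with all samples and by 0.87 without library 2 (edgeR adjusted p = 0.0321 and 0.000897). The first of these calls was lost without any of the 3 knockout trained samples. Ppfia4, which encodes a scaffold protein of the liprin family, was higher in sedentary muscle labelled knockout, with a mean of 3.02 ± 0.709 against 1.27 ± 0.514 CPM (SD, n = 5 in both) and 1.23 on the log2 scale (SE 0.298, edgeR adjusted p = 0.031). That call was lost in 7 of the 18 fits with 1 sample left out, and without vehicle trained library 2 the change was 1.24 (edgeR adjusted p = 0.0112). Also without that library, Rora fell in sedentary muscle by 0.50 (edgeR adjusted p = 0.0127). In the same fit Kdm3a, which encodes a histone demethylase, was higher in sedentary muscle by 0.38 (edgeR adjusted p = 0.013). P4ha1, which encodes a collagen prolyl hydroxylase, fell in trained muscle by 0.37 (edgeR adjusted p = 0.0296).

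**Figure D4:**
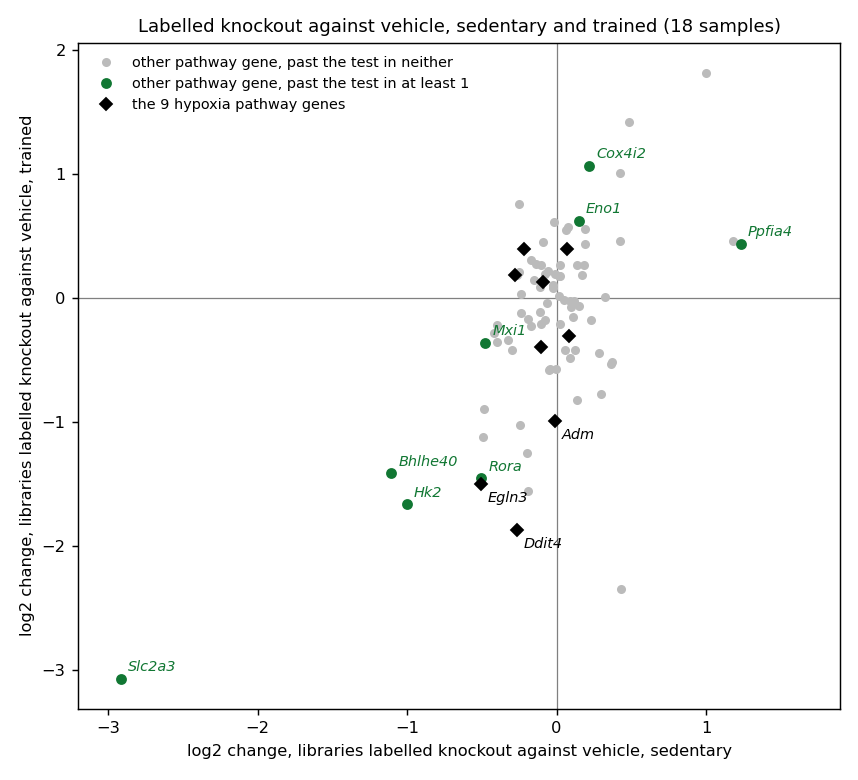
log2 change between libraries labelled knockout and vehicle libraries in sedentary (x axis) and trained muscle (y axis) for the 9 genes and the 78 other pathway genes, 18 samples. Slc2a3 stands apart at -2.92 and -3.07, and of the 9 genes Ddit4, Egln3 and Adm lie lowest on the y axis, where vehicle trained library 2 enters, and Egln3 lowest on the x axis.

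**Figure D5:**
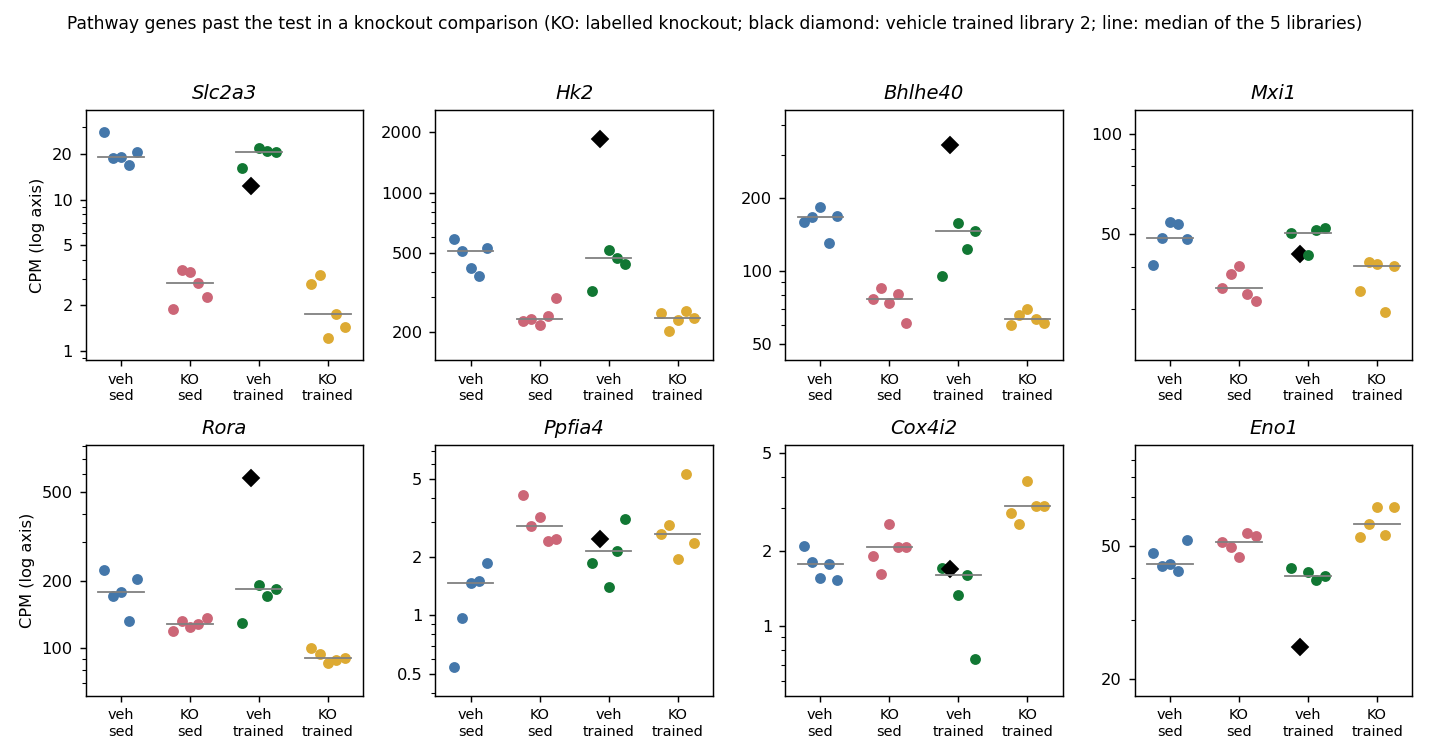
CPM on log axes of the 8 other pathway genes that passed the test with all samples in a knockout comparison, 1 point a library. The line is the median of the libraries of a group, which in the knockout trained group are 3 samples. Slc2a3 separates the libraries labelled knockout (1.21 to 3.44 CPM) from the vehicle libraries (12.2 to 28.0 CPM) in both training states.

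The regulators of HIF other than Egln1 and Egln3 held 0 of 14 genes past the test in each comparison (edgeR), with 1, 2, 3, 2 and 0 at an unadjusted p under 0.05 in the order used above. DESeq2 called 0, 2, 0, 1 and 0 of them, limma 0, 1, 0, 0 and 0, and limma voom 2, 5, 0, 7 and 1. Of all tested genes edgeR called 2.33%, 3.29%, 0%, 0% and 0%, and voom 9.23%, 28.5%, 0.00696%, 27.2% and 8.43%. At an unadjusted p under 0.05 (edgeR) there were 1409, 2467, 2186, 1394 and 1076 of 14359. The DESeq2 counts over all genes are given in the last section. Egln2, which encodes the third prolyl hydroxylase, had a mean of 74.5 ± 4.68 CPM over the vehicle sedentary samples and of 63.6 ± 3.03 CPM over those labelled knockout sedentary (SD, n = 5 in both). Its values did not overlap there, and the log2 change was -0.23 (SE 0.127, edgeR adjusted p = 0.629, or 0.0935 without vehicle trained library 2). Hif1an, the asparagine hydroxylase that silences HIF, had a training change of -0.34 in vehicle muscle with all samples (edgeR adjusted p = 0.282). Library 2 was the lowest of the trained group at 96.02 CPM. The other 4 had a mean of 137.3 CPM, against 162.6 in vehicle sedentary samples. Vhl, the ubiquitin ligase subunit that binds hydroxylated HIF, had a training change of 0.29 in vehicle muscle (edgeR adjusted p = 0.326). Here library 2 was the highest of the trained group at 13.1 CPM. The mean of the other 4 was 10.8 CPM, against 9.18 in vehicle sedentary samples. Hif3a, the third alpha subunit, had means of 2.84 ± 1.18 and 2.27 ± 0.341 CPM over the same samples (SD, edgeR adjusted p = 0.866). Rbx1, a ring protein of the VHL ligase, rose with training in muscle labelled knockout without library 2 (log2 change 0.44, SE 0.101, edgeR adjusted p = 0.0479), as did Gapdh, a glycolysis gene with many near-identical copies (0.49, SE 0.102, edgeR adjusted p = 0.0347). With all samples their adjusted p were 0.146 and 0.141.

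Of the targets in blood vessels, red cells and iron handling, 0 of 16 passed the test in each comparison (edgeR), with 1, 4, 2, 0 and 1 at an unadjusted p under 0.05. DESeq2 called 0, 1, 0, 0 and 0 of them, limma 0 in each, and limma voom 1, 4, 0, 3 and 0. For these targets and the lists that follow, the shares of all tested genes are those given above with the HIF regulators. Without vehicle trained library 2 the iron transporter gene Slc11a2 fell in muscle labelled knockout, by 0.48 in sedentary and by 0.56 in trained muscle on the log2 scale (edgeR adjusted p = 0.0272 and 0.0326). Of the receptors for adrenomedullin and VEGF 0 of 7 passed (edgeR), with 0, 0, 1, 1 and 0 at an unadjusted p under 0.05 and 0 called by DESeq2 and limma, whereas limma voom called 1, 2, 0, 2 and 1. Of the mTORC1 inhibitors related to Ddit4 0 of 7 passed (edgeR), with 1, 2, 1, 0 and 1 at an unadjusted p under 0.05, while DESeq2 called 1, in sedentary muscle, limma 0 and limma voom 1, 1, 0, 1 and 0. Without library 2 the sestrin genes Sesn1 and Sesn3 were higher in sedentary muscle labelled knockout (log2 changes 0.42 and 0.65, edgeR adjusted p = 0.0105 and 0.0208). Among other bHLH-PAS genes, Clock was higher and Per2 lower in both training states and Npas2 higher in sedentary muscle. So 3 of 14 passed in sedentary and 2 of 14 in trained muscle (edgeR), against 2.33% and 3.29% of all tested genes. When vehicle trained library 2 was left out 7 and 5 of 14 passed, against 6.98% and 8.66% of all tested genes. Arntl itself was then higher in muscle labelled knockout, by 0.92 in sedentary and 0.81 in trained muscle on the log2 scale (edgeR adjusted p = 0.00115 and 0.0148). Clock, Npas2, Per2 and Per3 passed in both states, and Per1 and Ncoa3 were lower in sedentary muscle (edgeR adjusted p = 0.0499 and 0.0105). The trained call on Clock was lost in 10 of the 18 fits with 1 sample left out. Whether these genes differ in their change from the 3 HIF subunits was not tested.

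For each of the 9 genes the 3 tested genes with the most similar pattern were taken by Spearman's rho of log2 CPM over the 18 samples, as a description, since samples share groups and library depth. Vegfa was closest to Dvl1 (rho 0.953), Naa40 and Rsrp1, and Arnt to Dysf (0.953), Mafg and Pdcd11. Hif1a was closest to Lamp2 (0.93), Rb1cc1 and Tug1, and Egln3 to Art5 (0.926), Vgll2 and Alpk3. Egln1 was closest to Ilrun (0.899), Fastk and Esrra. Ddit4 was closest to Nfkbia (0.901), Arrdc2 and Gadd45g, and Adm to Alkal2 (0.911), Il10ra and C4b. Epas1 was closest to Cyp26b1 (0.845), Adgrf5 and Ano4, and Ankrd37 to Mtap (0.792), Eif2ak2 and Glrx2. None of the 9 was among the 3 closest genes of another. Without vehicle trained library 2 the first-named rho values were 0.752 to 0.944.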

How the data were processed

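The annotation, any RNA selection and the strand setting of the counting are not given in the sources used here. RNA was isolated with Trizol and a Qiagen RNEasy kit, per the labels' protocols. The submitters' processing notes name Partek, STAR 2.7.8a and DESeq2, and the builds mm10 and GRCm39, with no roles. The authors deposited 1 table of 21844 genes and 20 libraries whose values are estimated counts of reads (72% of them whole numbers), although its name calls them CPM. They were rounded to whole numbers here, and their depth limits precision most for Ankrd37. Totals per library are given in the report.

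Genes with at least 1 CPM in at least 5 libraries were tested with edgeR 4.0.16 in R 4.3.3 (quasi-likelihood, TMM scaling, 4 group means, two-sided tests). P-values were adjusted by Benjamini and Hochberg's method over 14359 genes, with a threshold of 0.05. A pair of libraries was summed and counted once where its median squared difference, as a multiple of counting noise, was under 1.5 times as large at high as at low counts, a limit set after the values were seen. The steps were tested on simulated data. DESeq2 1.42.0, limma 3.58.1, other scalings and filters, leaving out each sample and a replicate block were alternatives. The 9 genes and all lists were chosen with earlier results of these data known. Genes named are these 9, Arntl, genes of the lists past the threshold with all samples or without vehicle trained library 2 (up to 8 in each direction), HIF regulators by role and, for each of the 9, the 3 genes with the closest pattern.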

Additional observations from a re-analysis of the deposited data

Results flagged for a closer look

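In 5 of the 27 sets of values tested (each of the 9 genes in each group of 5 libraries), 1 library lay far from the other 4 by Dixon's criterion, with a gap of more than 0.71 of the range. Chance alone flags about 1 in 20 such sets, or 1.35 of 27. All 5 were vehicle trained library 2, at 59.2 CPM for Hif1a, 110.7 CPM for Arnt, 365.7 CPM for Egln3, 427.0 CPM for Ddit4 and 27.55 CPM for Adm. These 5 values come from 1 library and are not independent of each other. The knockout trained group, with n = 3, was not examined in this way.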

How the results depend on the processing

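Of the results for single genes of the 9 under all alternatives, 1387 kept their direction and side of the threshold, 76 changed direction and 8 passed the threshold in the reported direction, which with 3 of the 76 makes 11 that passed; the cause was not tested. Robust dispersions and the fits by DESeq2, limma and the replicate block without vehicle trained library 2 were chosen after seeing the data. Ankrd37 has no value under the stricter filter, and the interaction needs all groups. Counts below follow the order knockout in sedentary muscle, knockout in trained muscle, training in vehicle muscle, training in muscle labelled knockout, interaction.

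Of the 9 genes, fits of only the compared groups called 1 in the first comparison. Limma voom with quality weights called 3 in the second (Arnt -0.242, Egln1 0.302, Egln3 0.611), 2 in the fourth (Hif1a -0.293, Arnt -0.215) and 2 in the fifth (Egln1 0.502, Egln3 1.15). DESeq2 without library 2 called 1 each in the third, the fourth and the fifth. Of the 78 other pathway genes, voom called 13, 32, 0, 29 and 8, and fits of only the compared groups 12 and 1 in the first 2 comparisons. DESeq2 called 10 in the second and 3 in the fourth. Taking the 20 libraries as separate gave 15 in the second. Without library 2, DESeq2 called 14, 19 and 8 in the first, the second and the fourth. The shares of all tested genes it called there were 8.67%, 11.3% and 4.98%. Limma without library 2 called 8 and 1 in the first and the fourth. Its share of all tested genes is not given here, so these counts have no background. With 1 sample left out, edgeR counts were 2 to 8, 1 to 9 and 0 to 4 in the first, the second and the fourth. Over all genes those fits called 251 to 1002, 177 to 1244 and 0 to 397.

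Replicate numbers are shared across groups. Over 30 pairs of same-numbered libraries the correlation of deviations was -0.394 to 0.351, with 11 over 0.1. Pairs with unlike numbers were not examined, so these values cannot decide whether the numbers pair the samples. The block was fitted with the 20 libraries taken as separate, since the summed pairs carry 2 numbers. With this replicate block 11 pathway genes were called in the second comparison (15 with separate libraries and no block). Without library 2 the block on 19 separate libraries gave 9, 19 and 1 in the first, the second and the fourth. The calls over all genes in that last fit are not given here, so its counts have no background. Over all genes the block on 20 libraries called 336, 980, 0, 0 and 0, against 373, 1225, 0, 49 and 0 with separate libraries and no block, and 334, 473, 0, 0 and 0 reported. Under the block the change was 0.202 for Ddit4 and 0.0202 for Adm in the first comparison and -0.0948 for Adm in the fourth. With the block and without library 2 it was 0.45 for Egln3, 0.144 for Ddit4 and -0.126 for Ankrd37 in the second, -0.126 for Hif1a, -0.0972 for Arnt, -0.915 for Egln3 and 0.103 for Ankrd37 in the third, -0.0409 for Adm in the fourth, and 0.97 for Egln3 and 0.168 for Ddit4 in the fifth.

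Over all genes DESeq2 called 537, 907, 15, 198 and 26, voom 1325, 4093, 1, 3902 and 1211, and fits of only the compared groups 1177, 20, 0 and 0. Leaving out knockout trained libraries 3 and 5 left 177 in the second, and leaving out 1 and 4 gave 397 in the fourth.

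Other changes of direction, as log2 changes, were these. With library totals Adm was at 0.0343 in the first comparison, and in the fourth Epas1 at -0.00381, Egln3 at -0.102 and Adm at -0.121. With limma and a pseudocount of 1 Adm was at 0.000315 in the first, and Egln3 at -0.15 in the third and 0.191 in the fifth. With a pseudocount of 0.1 these were 0.00154, -0.168 and 0.211. With voom Ddit4 was at 0.159 in the first, Egln3 at 0.611 and Ankrd37 at -0.153 in the second, Hif1a at -0.111, Arnt at -0.0612, Egln3 at -1.13 and Ankrd37 at 0.0836 in the third, Adm at -0.0412 in the fourth, and Egln3 at 1.15 and Vegfa at -0.0333 in the fifth. With the 20 libraries as separate Adm was at -0.0417 in the fourth. DESeq2 without library 2 gave 0.411 for Egln3, 0.0973 for Ddit4 and -0.0548 for Ankrd37 in the second, -0.135 for Hif1a, -0.0917 for Arnt, -0.881 for Egln3 and 0.0711 for Ankrd37 in the third, and 0.921 for Egln3 and 0.368 for Ddit4 in the fifth. Limma without library 2 gave 0.00487 for Adm in the first, 0.475 for Egln3, 0.31 for Ddit4 and -0.0241 for Ankrd37 in the second, -0.127 for Hif1a, -0.0848 for Arnt, -0.925 for Egln3 and 0.0681 for Ankrd37 in the third, and 0.973 for Egln3 and 0.334 for Ddit4 in the fifth.

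With 1 sample left out, direction changed in these ranges. In the first comparison they were -0.142 to 0.0721 for Adm and -0.499 to 0.155 for Ddit4. In the second they were -0.047 to 0.303 for Ankrd37, -2.17 to 0.0948 for Ddit4 and -1.76 to 0.413 for Egln3. In the third they were -0.272 to 0.0784 for Ankrd37, -0.087 to 0.24 for Arnt, -0.879 to 1.3 for Egln3 and -0.129 to 0.193 for Hif1a. In the fourth they were -0.192 to 0.181 for Adm, -0.0383 to 0.128 for Egln3 and -0.407 to 0.0464 for Vegfa, of which 0.181, -0.0383 and -0.407 came without knockout trained libraries 1 and 4 (the range over the others was up to 0.171 for Adm, from -0.0339 for Egln3 and from -0.214 for Vegfa). In the fifth they were -2.03 to 0.348 for Ddit4 and -1.26 to 0.919 for Egln3.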
